A study of Mus musculus with 6 samples.

Results

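The genes described here are 8 of the 49585 gene IDs in a table of RNA-seq counts from cells of mouse acute myeloid leukemia (AML). They were chosen by name, as the histone methyltransferase Dot1l, its partners Mllt1, Mllt3, Mllt6 and Mllt10, and Aff1, Aff3 and Aff4 of the AF4 family, and all 8 passed the filter on low counts. The cells came from the marrow of moribund mice with leukemia driven by KMT2A-MLLT3, which every group shares, and the marrow was transduced with DOT1L and sorted (whether the NT cells were is not stated). Cells labelled NT, cells sorted for low expression (DOT1L Low) and cells sorted for high expression (DOT1L High) gave 2 libraries each, 1 from leukemia K3117 and 1 from leukemia K3174. RNA was taken 3 days after the sort, from cells kept in DMEM with 10% serum, interleukin 3, interleukin 6 and stem cell factor. The labels do not expand NT, and they give neither the species and promoter of the DOT1L construct nor the origin of the fusion, so reads of either may or may not be counted on the mouse genes. Nor do they give the age or strain of the mice or say whether a K number is 1 mouse, so the p-values given here describe the spread between these libraries, which may be technical.

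DOT1L methylates a lysine on the globular core of histone H3 in the bodies of transcribed genes. MLLT1 (ENL) and MLLT3 (AF9) are paralogous YEATS domain proteins that bind acylated histones and can hold either DOT1L or an AF4 family protein. MLLT10 (AF10) and MLLT6 (AF17) are paralogous PHD finger proteins that bind DOT1L through a leucine zipper. AFF1 (AF4) and AFF4 are scaffolds of the super elongation complex, which brings the kinase P-TEFb to paused RNA polymerase II. In human leukemia each of these genes other than DOT1L is known as a fusion partner of KMT2A, and KMT2A fusions with several of them are known to depend on DOT1L.

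Of the 8 genes, Aff1, Aff4 and Mllt3 rose and Mllt6 fell in High over NT, a contrast in which 17.3% of all genes tested passed, and Dot1l, Mllt1, Mllt10 and Aff3 did not pass. The regions upstream of the 4 genes that passed are shown because the genes did so in the same contrast, 3 higher and 1 lower. Each region is the 250 bases before the first RefSeq start listed for the gene on GRCm38.p6. They lie at chr5:103753912-103754161 (plus strand) for Aff1, chr11:53350517-53350766 (plus strand) for Aff4, chr4:88033408-88033657 (minus strand) for Mllt3 and chr11:97663162-97663411 (plus strand) for Mllt6. Each is printed in the direction of its gene, and capitals mark matches to any of 7 motifs searched on both strands. The window of Aff1 lies inside the annotated span of the gene.
Aff1: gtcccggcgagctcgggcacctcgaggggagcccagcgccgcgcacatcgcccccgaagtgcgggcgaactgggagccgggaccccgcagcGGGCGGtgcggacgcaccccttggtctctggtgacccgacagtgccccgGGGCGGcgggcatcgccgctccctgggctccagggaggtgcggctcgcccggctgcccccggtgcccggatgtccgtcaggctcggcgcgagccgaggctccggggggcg
Aff4: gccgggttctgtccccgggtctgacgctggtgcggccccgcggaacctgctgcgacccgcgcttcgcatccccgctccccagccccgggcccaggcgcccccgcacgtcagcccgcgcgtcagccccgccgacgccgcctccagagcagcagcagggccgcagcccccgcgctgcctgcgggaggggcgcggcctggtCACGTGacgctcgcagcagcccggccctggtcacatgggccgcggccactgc
Mllt3: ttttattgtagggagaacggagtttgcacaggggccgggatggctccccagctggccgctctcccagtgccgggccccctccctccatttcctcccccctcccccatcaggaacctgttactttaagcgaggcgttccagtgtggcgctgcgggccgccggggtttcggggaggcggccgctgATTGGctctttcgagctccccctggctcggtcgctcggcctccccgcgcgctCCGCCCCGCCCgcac
Mllt6: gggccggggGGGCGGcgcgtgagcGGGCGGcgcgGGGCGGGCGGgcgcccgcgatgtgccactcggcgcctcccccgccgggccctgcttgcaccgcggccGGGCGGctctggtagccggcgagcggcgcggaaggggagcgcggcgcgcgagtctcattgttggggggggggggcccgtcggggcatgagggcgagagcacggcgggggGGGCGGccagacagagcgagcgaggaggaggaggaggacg

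The 4 windows were rich in G and C, at 78.8% for Aff1, 79.2% for Aff4, 69.2% for Mllt3 and 81.6% for Mllt6, against a median of 52.4% over 32841 RefSeq windows of the same length. This was not particular to them. Of the genes that did not pass, the first windows had 78.4% for Dot1l, 77.6% for Mllt1, 82.0% for Aff3 and 41.2% for Mllt10. The GC box GGGCGG was found 2 times before Aff1, 2 times before Mllt3 and 6 times before Mllt6, with none before Aff4, and 1 pair of the matches overlaps in each of Mllt3 and Mllt6. It was present in 32.8% of all windows, and in the first windows of 6 of the 8 genes. A CCAAT box (CCAAT, in 33.9% of all windows) was found 1 time before Mllt3 and an E-box (CACGTG, in 6.02%) 1 time before Aff4. The ETS core CCGGAA (12.0%), the TATA box TATAAA (12.4%), a HOX and MEIS motif TGATTNAT (2.83%) and a C/EBP motif TTGCNNAA (9.57%) had no match in the 4 windows. The 3 genes that rose shared no motif of the 7, and the gene that fell shared the GC box with 2 of them. Other starts are listed for Aff1, Mllt3 and Mllt10, and their windows differ from the first. The second window of Aff1 had 66.4% G and C, with 3 GC boxes and 1 ETS core. The second of Mllt3 had 45.2%, with 2 CCAAT boxes and no GC box. For Mllt10 the second had 79.2%, with 2 GC boxes, and the third 42.4%, with 1 CCAAT box. These letters describe the windows only.

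The libraries held 32136251 and 22908445 counts for NT, 30913389 and 33265848 for Low, and 23132184 and 30304101 for High (K3117 and K3174), of which the 8 genes took between 0.0608% and 0.0809%. Levels are in TMM-normalised CPM, the count scaled to the size of its library. Fold changes come from edgeR's quasi-likelihood test over 15812 genes with the leukemia as a block, errors are the SE of the log2 fold change, and the threshold is a Benjamini-Hochberg adjusted p of 0.05. Markers of the labelled cell type were present, with Hoxa9 at 153.9 to 272.4 CPM and Ptprc at 246.5 to 341.6 CPM. Of the 8 leukemia and progenitor markers, 3 rose in High over NT (Kit by 0.68, Spi1 by 0.77 and Mpo by 3.28 on the log2 scale) and 3 fell (Hoxa9 at -0.75, Hoxa10 at -0.81 and Meis1 at -1.18). T and NK cell markers summed to at most 0.361 CPM, and Cd3e, Ncr1, Ms4a1, Col1a2 and Cxcl12 had no count in any library. Late neutrophil markers moved with the labels, with 10 of 11 tested past the threshold upward in High against NT. Of the 12 listed, Mmp8 did not pass (0.01 ± 0.27, adjusted p = 0.99) and Retnlg, at 0.135 CPM at most, was too low to test. The summed level of the late neutrophil markers was 34.1 and 153.7 CPM in NT, 169.5 and 1386 CPM in Low, and 1739 and 7266 CPM in High. Of 8 monocyte and macrophage markers 3 rose (Csf1r by 1.40, Cd14 by 1.38 and Adgre1 by 1.26) and 4 fell (Ccr2 at -1.21, Irf8 at -1.09, Ly86 at -1.04 and Cx3cr1 at -0.70). Their sum was 611.8 and 441 CPM in NT, 432.3 and 267.1 CPM in Low, and 627.9 and 375.7 CPM in High. The part of these markers in the results below was not tested, and in bulk RNA fewer cells of a type and less RNA per cell cannot be told apart.

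Dot1l (ENSMUSG00000061589.14, GRCm38 chromosome 10, 80755206 to 80795461, plus strand) did not follow the labels. In K3117 the NT library stood at 127.8 CPM, the Low library at 183.7 CPM and the High library at 149.8 CPM. In K3174 the NT library stood at 158.0 CPM, the Low library at 152.0 CPM and the High library at 136.4 CPM. Neither leukemia had its highest value in High, and the libraries labelled High lay within the range of the NT libraries. The fold for High over NT had a 95% interval of 0.792 to 1.26, and that for High over Low was 0.853 (0.687 to 1.06, adjusted p = 0.54). Both High values lay below both Low values. Low over NT had a log2 fold change of 0.23 ± 0.14 (adjusted p = 0.62) with all 6 libraries. Within the leukemias it was 0.52 in K3117 and -0.06 in K3174. With K3174 NT left out, so that NT came from K3117 alone, it was 0.49.

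**Figure D1:**
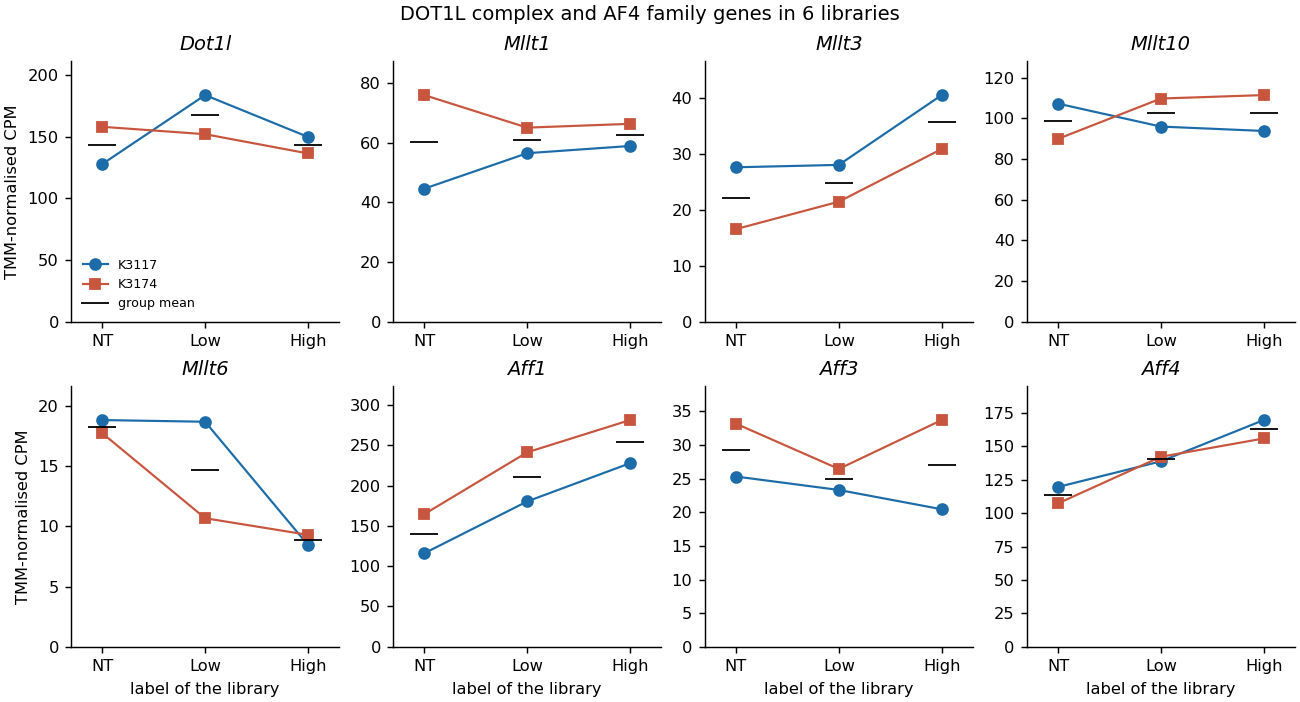
TMM-normalised CPM of the 8 genes (vertical axes start at 0) by library label, with a line per leukemia and a bar at the mean of each label's 2 libraries. Aff1 and Aff4 were higher in High than in NT in both leukemias, Mllt6 was lower at 8.45 and 9.29 CPM against 18.8 and 17.7 CPM, and the lines of Dot1l, Mllt1 and Mllt10 ran in different directions in the 2 leukemias.

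Among the 2 YEATS domain genes, Mllt3 was higher in the libraries labelled High and Mllt1 had no common direction. Mllt3 (ENSMUSG00000028496.17, chromosome 4, 87769925 to 88033364, minus strand) had 40.6 and 30.9 CPM in High against 27.7 and 16.6 CPM in NT, in K3117 and K3174. Both High values lay above both NT values, and the gene rose 1.64-fold (log2 0.72 ± 0.15, 95% interval of the fold 1.31 to 2.06, adjusted p = 0.0059). In Low it had 28.1 and 21.5 CPM, which overlapped NT (log2 0.19 ± 0.15, adjusted p = 0.76). High exceeded Low by similar amounts in the 2 leukemias, 0.53 and 0.52 on the log2 scale, and missed the threshold (0.53 ± 0.15, adjusted p = 0.067), which it passed with no low-count filter, with the 4 High and Low libraries alone and without either NT library (adjusted p of 0.037 at most). The rise over NT missed it without the K3174 High library (0.64, adjusted p = 0.060). Mouse Mllt3 reads and reads of a KMT2A-MLLT3 fusion of mouse origin cannot be told apart in these counts. The part of fusion reads in the values of Mllt3 and Kmt2a was not tested. Kmt2a, the other end of the fusion, rose by 0.45 ± 0.13 in High over NT (adjusted p = 0.034). That call held in 8 of 14 alternatives and was lost with library sizes alone and with upper quartile factors.

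Mllt1 (ENSMUSG00000024212.8, chromosome 17, 56892611 to 56935415, minus strand) had 58.9 and 66.3 CPM in High against 44.6 and 75.9 CPM in NT. It was higher in High than in NT in K3117 and lower in K3174, so that the High values lay inside the NT range. The fitted fold was 1.07 with a 95% interval of 0.842 to 1.35 (adjusted p = 0.76). Low, at 56.4 and 65.0 CPM, lay between the NT values in the same way (log2 0.05 ± 0.15, adjusted p = 0.98). High over NT was 0.40 on the log2 scale in K3117 and -0.20 in K3174. With K3174 NT left out, so that NT came from K3117 alone, the fit gave 0.40.

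Of the PHD finger genes Mllt6 fell in High, and Mllt10 did not pass in any contrast. Mllt6 (ENSMUSG00000038437.11, chromosome 11, 97663414 to 97685463, plus strand) had 8.45 and 9.29 CPM in High against 18.8 and 17.7 CPM in NT. The groups did not overlap, and the gene fell to 0.490-fold of NT (log2 -1.03 ± 0.22, 95% interval of the fold 0.351 to 0.686, adjusted p = 0.0071). In Low the leukemias parted, with 18.7 CPM in K3117, near its NT value, and 10.7 CPM in K3174, near its High value. Low over NT did not pass (-0.34 ± 0.21, adjusted p = 0.62), and High over Low was -0.68 ± 0.22 (adjusted p = 0.12). That last difference was -1.14 in K3117 and -0.20 in K3174. It was -1.08 with K3174 Low left out and -0.98 with K3174 High left out, fits in which 1 of the 2 labels came from K3117 alone. High over Low passed with the 4 High and Low libraries alone and with no low-count filter. Its log2 fold change lay between -0.71 and -0.67 in these fits and without either NT library.

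Mllt10 (ENSMUSG00000026743.16, chromosome 2, 18055237 to 18212388, plus strand) varied least of the 8 across libraries, with an SD of log2 CPM of 0.13, against 0.54 for Mllt6. It had 93.85 and 111.5 CPM in High against 107.3 and 89.95 CPM in NT, with opposite directions in the 2 leukemias (fold 1.04, 95% interval 0.838 to 1.28, adjusted p = 0.86). Exons of Dnajc1, on the opposite strand, overlap 749 of its 5907 exon bases, or 12.7%. How the counting treated strand is not given in the sources used here, so reads of the pair there cannot be told apart.

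The AF4 family scaffolds Aff1 and Aff4 stepped up in the order of the labels in both leukemias, and Aff3 did not. Aff1 (ENSMUSG00000029313.18, chromosome 5, 103692374 to 103855322, plus strand) stood at 116.1 CPM in the NT library of K3117, at 180.5 CPM in its Low library and at 228.0 CPM in its High library. In K3174 the NT library had 164.7 CPM, the Low library 241.5 CPM and the High library 281.6 CPM. Both High and both Low values lay above both NT values, while High and Low overlapped between leukemias. Aff1 rose 1.83-fold in High over NT (log2 0.87 ± 0.12, 95% interval of the fold 1.54 to 2.18, adjusted p = 0.00028) and 1.51-fold in Low over NT (0.59 ± 0.11, 1.27 to 1.80, adjusted p = 0.016). The step of High over Low was 1.21-fold (0.28 ± 0.11, adjusted p = 0.25), and passed with K3174 NT left out (0.28, adjusted p = 0.044). The rise in Low missed the threshold without the K3117 Low library (adjusted p = 0.10) and without the K3174 Low library (adjusted p = 0.23).

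Aff4 (ENSMUSG00000049470.13, chromosome 11, 53350833 to 53421830, plus strand) had 119.6 and 107.3 CPM in NT, 138.8 and 142.2 CPM in Low, and 169.7 and 155.9 CPM in High. The 3 labels did not overlap. High over NT was 1.44-fold (0.52 ± 0.12, 95% interval of the fold 1.204 to 1.71, adjusted p = 0.0084), with 0.50 in K3117 and 0.54 in K3174. The rise missed the threshold without the K3117 High library (0.48, adjusted p = 0.11) and without the K3174 High library (0.55, adjusted p = 0.053). Neither step passed alone, at 0.31 ± 0.12 for Low over NT (adjusted p = 0.23) and 0.21 ± 0.11 for High over Low (adjusted p = 0.45). Aff3 (ENSMUSG00000037138.17, chromosome 1, 38177326 to 38664955, minus strand), a family member best known from lymphoid cells and brain, had 20.45 and 33.7 CPM in High against 25.3 and 33.2 CPM in NT, and the values overlapped (fold 0.913, 95% interval 0.718 to 1.16, adjusted p = 0.66). In Low it had 23.3 and 26.45 CPM, below NT in each leukemia (-0.22 ± 0.16, adjusted p = 0.72).

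**Figure D2:**
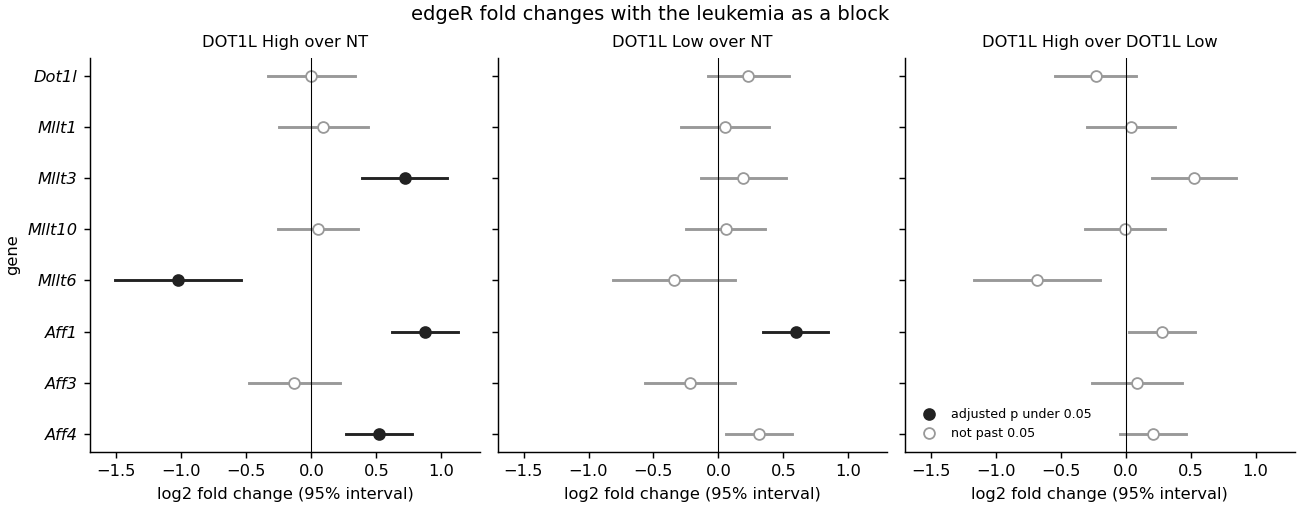
Fitted log2 fold change (point) and 95% interval (line) of the 8 genes for High over NT, Low over NT and High over Low. Filled points passed an adjusted p of 0.05, which holds for Aff1, Mllt3, Aff4 and Mllt6 in High over NT and for Aff1 in Low over NT.

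The counts of genes called are read against all genes. For High over NT 4 of 8 genes passed where 17.3% of all genes did, with 3 of 8 higher against 10.0% and 1 of 8 lower against 7.32%. Of all genes called, 57.8% were higher, against 43.9% with upper quartile factors and 49.1% with library sizes alone, and the 4 genes passed under each. The median log2 fold change was 0.07 for the 8 genes and -0.01 for all genes tested. For Low over NT 1 of 8 passed, against 3.34% of all genes (2.05% higher, 1.29% lower), and the medians were 0.12 and -0.01. For High over Low none of the 8 passed by edgeR or by DESeq2, where 5.48% of all genes passed by edgeR (4.12% higher, 1.35% lower). An unadjusted edgeR p under 0.05 was found for 3 of the 8, beside 2417 of all 15812 genes tested. These 3 were Mllt3, Mllt6 and Aff1. High over NT and Low over NT share the NT libraries, and High over Low shares the High and Low libraries with them. Without the leukemia as a block (no replicate block), none of the 8 genes passed in any of the 3 contrasts by edgeR. Of all 15812 genes, 493 then passed for High over NT, and 0 for Low over NT and for High over Low. In those last contrasts no gene was called, so the count says nothing particular to the 8 genes. The 4 genes called for High over NT then had an adjusted p of 0.058 for Aff4, 0.10 for Aff1, 0.12 for Mllt6 and 0.25 for Mllt3. All kept their direction under each of the 14 alternatives, from 0.78 to 0.95 for Aff1, from 0.43 to 0.58 for Aff4, from 0.55 to 0.90 for Mllt3 and from -1.34 to -0.77 for Mllt6.

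**Figure D3:**
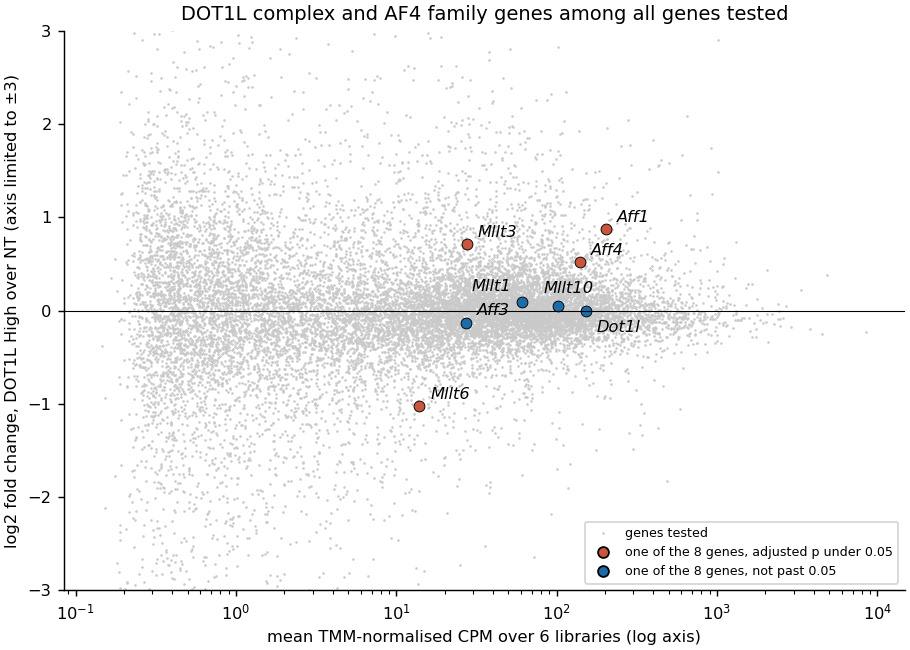
Log2 fold change of High over NT (vertical axis, limited to 3 in either direction) against mean CPM (log axis) for the 15812 genes tested in grey, with the 8 genes labelled. Aff1, Aff4 and Mllt3 lie above the bulk of genes of their level and Mllt6 below it, while Dot1l, Mllt1, Mllt10 and Aff3 lie near 0.

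The leukemias also differed from each other in some of these genes. With the labels in the model, K3174 had less Mllt3 than K3117 (log2 -0.50 ± 0.12, adjusted p = 0.023) and more Aff1 (0.41 ± 0.09, adjusted p = 0.016), each in 3 of 3 labels, while the 2 leukemias overlapped across labels. These were 2 of 8 genes, against 9.37% of all genes (3.05% higher, 6.32% lower). Mllt1 (0.38 ± 0.13, adjusted p = 0.097) and Aff3 (0.43 ± 0.13, adjusted p = 0.065) were higher in K3174 in 3 of 3 labels and did not pass. Neither Mllt3 (adjusted p = 0.067 and 0.076) nor Aff1 (adjusted p = 0.14 and 0.12) passed without the Low library of K3117 or of K3174. Late neutrophil markers were also higher in K3174, in 9 of 11 genes tested. With 2 leukemias these values describe that pair only.

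Levels of different genes were set side by side as CPM per kb of exon, over the union of exons in GENCODE M21. Aff1 stood highest, at a mean of 21.4 CPM per kb over the 6 libraries (12.3 to 29.8), followed by Dot1l at 17.4 (14.7 to 21.1), Mllt10 at 17.2 (15.2 to 18.9) and Mllt1 at 15.6 (11.4 to 19.4). These 4 neighbours overlapped across libraries. Aff4 came next at 10.3 (7.98 to 12.6), overlapping Mllt1. A gap followed to Aff3 at 4.07 (3.07 to 5.07), Mllt3 at 2.296 (1.38 to 3.38) and Mllt6 at 1.87 (1.13 to 2.53), of which each overlapped the next. With the longest coding transcript as the length, a choice made after the data were seen, the order was the same except that Mllt3 and Aff3 changed places, at 4.54 and 4.51.

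Within the families the shares differed between labels. Aff1 made up 54.4% and 61.2% of the AF4 family CPM per kb in High, against 44.6% and 55.7% in NT, in K3117 and K3174, a step up within each leukemia with overlap between them. Aff3 made up 6.93% and 10.4% in High against 13.8% and 15.95% in NT. The ratio of Aff1 to Dot1l per kb was 1.40 and 1.90 in High against 0.836 and 0.959 in NT, so that Aff1 stood above Dot1l per length in both High libraries and below it in both NT libraries. The ratio of Mllt6 to Mllt10 was 0.0713 and 0.0660 in High against 0.139 and 0.156 in NT. The ratio of Mllt3 to Mllt1 was 0.225 and 0.152 in High against 0.203 and 0.0713 in NT, and these overlapped. With 2 libraries a group these ratios were not tested.

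**Figure D4:**
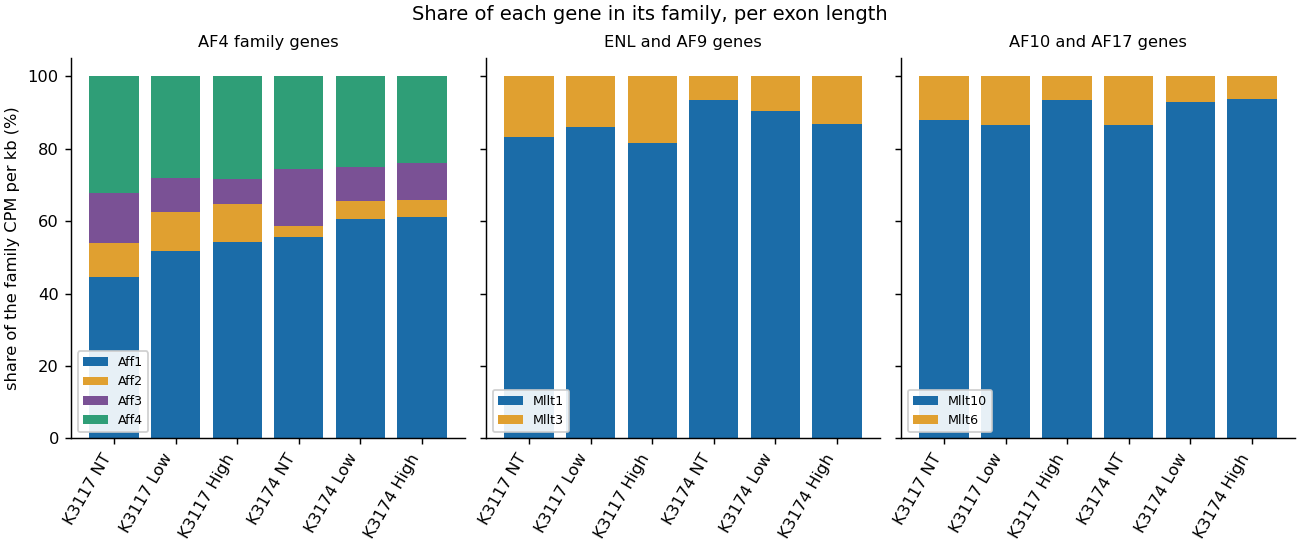
Share of each gene in the summed CPM per kb of its family (vertical axis, percent) in the 6 libraries, for the AF4 family, for Mllt1 (ENL) with Mllt3 (AF9), and for Mllt10 (AF10) with Mllt6 (AF17). Mllt1 and Mllt10 made up most of their pairs in every library, from 81.6% to 93.3% and from 86.5% to 93.8%.

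Among genes that work with these proteins, the fourth AF4 family gene, like Aff1, rose over NT in both High and Low. Aff2, known for the fragile site on the X chromosome, had 18.6 and 6.39 CPM in NT, 28.9 and 14.7 CPM in Low, and 33.03 and 15.99 CPM in High. It rose in High over NT (1.04 ± 0.18, adjusted p = 0.0016) and in Low over NT (0.89 ± 0.18, adjusted p = 0.018), and was lower in K3174 than in K3117 (-1.17 ± 0.14, adjusted p = 0.00029). The counts in the lists that follow stand beside 10.0% of all genes tested that rose and 7.32% that fell in High over NT, and were not tested against them. Of 12 tested genes for P-TEFb, ELL and 7SK factors, 1 rose, with a median of 0.04. It was Ell2, an elongation factor bound by AFF scaffolds (0.63 ± 0.12, adjusted p = 0.0042), while Cdk9, the kinase of P-TEFb, had 0.01 ± 0.12. Of 10 genes for KMT2A and its cofactors 2 rose, Kmt2a and the host cell factor Hcfc2 (0.63 ± 0.13, adjusted p = 0.0058), with a median of -0.10. Kmt2a also missed the threshold with the 4 libraries alone, without the block, and without the K3174 High or NT library.

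Of 6 PAF1 complex genes 1 fell, Ctr9, which scaffolds that elongation complex. It had 436.1 and 340.4 CPM in NT, 370.1 and 232.0 CPM in Low, and 188.2 and 127.6 CPM in High (High over NT -1.32 ± 0.12, adjusted p = 2.6e-05). High over Low also passed (-0.92 ± 0.12, adjusted p = 0.0011). The other 5 had values between -0.06 and 0.13. Of 5 H2B ubiquitin ligase genes, which act upstream of DOT1L, Ube2a fell (-0.38 ± 0.11, adjusted p = 0.037). It passed in 7 of 14 alternatives and missed the threshold without the High or Low library of either leukemia, without the K3174 NT library, with the 4 libraries alone and without the block. Of 5 genes for BCOR and CBX8 partners, which bind MLLT1 and MLLT3, Bcor fell (-0.67 ± 0.12, adjusted p = 0.0021) and passed in 14 of 14 alternatives. Ell2 and Hcfc2 missed the threshold without the K3117 High library and, like Aff2 and Ctr9, without the block.

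**Figure D5:**
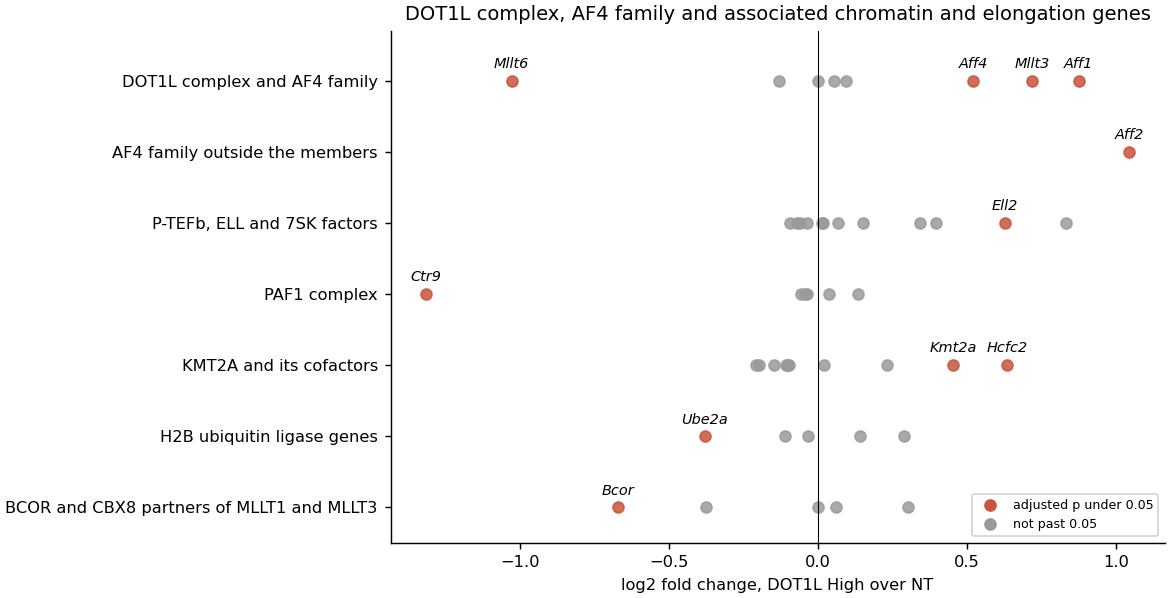
Log2 fold change of High over NT for each tested gene (point) of the 8 genes and of 6 lists of associated factors, with genes past an adjusted p of 0.05 in red and named. Ctr9 at -1.32 and Aff2 at 1.04 lie at the ends, and most other points lie near 0.

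The genes whose pattern was most like each of the 8 were found as the smallest root mean square difference of log2 CPM over the 6 libraries, after each gene's mean was subtracted, among 9471 other genes. For Aff1 they were Frmd4a (0.051) and Ppp2cb (0.055), and for Aff4 Cers6 (0.032) and Nmt2 (0.036). Mllt3 was followed most closely by Hist1h2bc (0.094) and Tnfsf14 (0.098), and Mllt6 by Tecpr1 (0.12) and Tap1 (0.13). The nearest genes were Ogfod3 (0.049) and Htra2 (0.051) for Dot1l, Adap1 (0.048) and Fryl (0.059) for Mllt1, Rbm48 (0.020) and Txlng (0.025) for Mllt10, and Sik1 (0.080) and Arhgef39 (0.092) for Aff3. With 6 libraries and 9471 genes, close matches of this kind are a description of these libraries.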

How the data were processed

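The values are raw read counts per gene, whole numbers that the authors deposited in 1 table for 6 libraries. Per the labels' protocols, RNA came from an RNeasy kit and was sequenced as 150 bp paired ends. Per the submitters' processing notes the tools were STAR, STAR-Fusion, kallisto and DESeq2 with mm10, with no role or version. What did the counting, on which annotation and strand, is not given in the sources used here. Symbols matched 99.5% of IDs. Positions and exon lengths are from GENCODE M21 (GRCm38, the assembly mm10 denotes) and upstream sequences from RefSeq (GRCm38.p6).

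In R 4.3.3, edgeR 4.0.16 filtered low counts (15812 genes kept), set TMM factors (0.973 to 1.04) and ran quasi-likelihood tests with label and leukemia as terms, leaving 2 residual degrees of freedom. Benjamini-Hochberg adjustment ran over all genes tested. DESeq2 1.42.0, other scalings and filters, left-out libraries and a fit without the block were alternatives. A prior count of 2 was used for log2 differences between single libraries. The titles give each K number to every label, so the leukemia is the block (its deviations correlated at 0.44 to 0.64 between labels). No libraries were duplicates (lowest chi-square per degree of freedom 26.9). The genes described, the lists and the rule for named genes (the 8 genes, list genes past the threshold for High over NT, and the 2 most alike genes with a mean CPM of at least 5) were chosen with earlier results of these data known.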

Additional observations from a re-analysis of the deposited data

Results flagged for a closer look

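For 6 differences the 2 leukemias moved in opposite directions, each beyond the 95% interval of its own counting error. With 1 library per label in each leukemia, the difference between the leukemias was not tested, and counting error leaves out the spread between samples. Values are log2 differences of CPM in K3174 and in K3117, and then K3174 minus K3117. For High over NT, Dot1l had -0.21 and 0.23 (-0.44), Mllt1 had -0.20 and 0.40 (-0.60), and Mllt10 had 0.31 and -0.19 (0.50). For Low over NT, Mllt1 had -0.22 and 0.34 (-0.56) and Mllt10 had 0.29 and -0.16 (0.45). For High over Low, Aff3 had 0.35 in K3174 and -0.19 in K3117 (0.54).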

How the results depend on the processing

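Fits without the leukemia as a block (no replicate block) called 493 genes for High over NT, 0 for Low over NT and 0 for High over Low, and 0 of the 8 genes in each of the first 2. With all 6 libraries and the block, 2741, 528, 866 and 1481 of 15812 genes passed for High over NT, Low over NT, High over Low and K3174 over K3117. These are 17.3%, 3.34%, 5.48% and 9.37% of all genes tested, beside 4, 1, 0 and 2 of the 8 genes. With no low-count filter, 1071 genes passed for Low over NT and 1425 for High over Low, with 2 of the 8 genes for High over Low and 4 for K3174 over K3117. A CPM of at least 5 in 2 libraries gave 568 genes for High over Low and 932 for K3174 over K3117. Fits of only the 4 libraries compared gave 881 genes for Low over NT and 1864 for High over Low, with 2 of the 8 genes in High over Low. Leaving out 1 library at a time gave 1927 to 4394 genes and 2 to 5 of the 8 for High over NT, 144 to 1483 and 0 to 2 for Low over NT, 335 to 1982 and 0 to 3 for High over Low, and 829 to 2642 and 0 to 3 for K3174 over K3117. Where that leaves a label with 1 library, it is assumed to vary like the others. Other filters and other sets of libraries can change the number of genes tested from 15812. No share over all genes is given for those fits, so their counts, also of the 8 genes, cannot be set against those above.

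Signs turned only for values that had not passed with all 6 libraries. For High over NT, Dot1l had 0.002086 without the block, 0.0001416 by DESeq2, 0.0003021 with DESeq2 size factors and 0.009688 with the 4 libraries alone. Mllt10 had -0.006503 with library sizes alone and -0.04389 with upper quartile factors, with which Mllt1 had -0.0008868, and -0.02129 for High over Low. With a library left out, High over NT ran from -0.2481 to 0.2662 for Dot1l, -0.1892 to 0.395 for Mllt1, -0.1775 to 0.2944 for Mllt10 and -0.3601 to 0.06443 for Aff3. Low over NT ran from -0.01631 to 0.4928 for Dot1l, -0.2263 to 0.3526 for Mllt1, -0.1708 to 0.3063 for Mllt10 and -0.7742 to 0.04424 for Mllt6. High over Low ran from -0.1288 to 0.1949 for Mllt1, -0.1504 to 0.1177 for Mllt10 and -0.1386 to 0.2874 for Aff3. K3174 over K3117 ran from -0.2012 to 0.0928 for Dot1l, -0.02612 to 0.2302 for Mllt10 and -0.4412 to 0.02751 for Mllt6. The cause was not tested.

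With upper quartile factors the median over all genes for High over NT was -0.11 (log2), against -0.01 with TMM, and the share of calls that were higher was 43.9%, against 57.8% (49.1% with library sizes alone). Aff1, Aff4, Mllt3 and Mllt6 passed for High over NT under each scaling. With 2 libraries a label, 2 leukemias and 1 library per label in each, a difference between the leukemias in the effect of a label could not be tested, and a p that misses the threshold does not show that levels were equal.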

Other observations

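Set in order of the summed late neutrophil markers, the 6 libraries ran NT, Low, High, with K3174 above K3117 within each label. The sum was 34.1 CPM in K3117 NT, 153.7 CPM in K3174 NT, 169.5 CPM in K3117 Low, 1386 CPM in K3174 Low, 1739 CPM in K3117 High and 7266 CPM in K3174 High. Mllt6 was at 18.8, 17.7 and 18.7 CPM in the 3 libraries with the lowest sums and at 10.7, 8.45 and 9.29 CPM in the 3 with the highest, in the same order. Aff1 was at 116.1, 164.7 and 180.5 CPM in the first 3 and at 241.5, 228.0 and 281.6 CPM in the others. Mllt3 had 21.5 CPM in K3174 Low and 40.6 CPM in K3117 High, which had similar sums. This ordering was made after the values were seen and was not tested.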
